A study of Mus musculus with 31 samples.

Results

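The genes described here are those of the cytosolic ribosome, taken by name: every row of the authors' normalized table called Rpl or Rps with a number, plus Rplp0, Rplp1, Rplp2 and Rpsa, without the pseudogenes marked -ps and the Rps6k kinases. The rule found 84 of the 20784 genes in that table, and each was matched by Ensembl identifier to 1 of the 55421 mouse rows of the raw counts. Of these, 50 carry names of the large subunit and 34 of the small subunit, and 82 are annotated as protein coding. Rps3a3 and Rpl32l are annotated as transcribed processed pseudogenes. The ribosomal protein Rps30 is made from the gene Fau, which the rule does not take.

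The libraries came from 18 lateral olivocochlear (LOC) neurons of the lateral superior olive and 13 medial olivocochlear (MOC) neurons recorded in the trapezoid body (its ventral nucleus), with 1 cell per library. Both groups were red fluorescent cells in acute brainstem slices of ChAT-IRES-Cre; tdTomato mice, in which Cre made under the choline acetyltransferase gene marks cholinergic cells, although the labels give the genotype of both groups as wild-type. Cytoplasm was aspirated after patch-clamp recording and turned into cDNA by Smart-seq2, a method that copies polyadenylated RNA over its whole length and amplifies the copies by PCR. The labels name no animal and no age, so cells could not be assigned to independent animals. Each group therefore counts as 1 sample, no test was made, and the SD given below is the spread between cells.

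The cytosolic ribosome is built of a small subunit, which reads the mRNA, and a large subunit, which joins the amino acids. Cells make its proteins in matched amounts, and in mammals their mRNAs begin with a C followed by a run of pyrimidines, the 5′ terminal oligopyrimidine motif, through which the mTOR pathway and Larp1 control their translation. In neurons, ribosomes serve both the cell body and the dendrites and axons. LOC and MOC neurons send long axons to the cochlea.

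Annotated start sites could be read for the genes with an entry in the RefSeq promoter table (GRCm38.p6), which was 62 of the 84. The starts used in these cells were not measured. The lines below run 5′ to 3′ on the gene's strand from 50 bases before the annotated start to 12 bases into the transcript. Capitals mark the pyrimidine run at the start or the letters CCGGAAG, an ETS family motif. The first 4 begin with the pyrimidine run, the next 2 have both features, Rpl37 has only CCGGAAG within these bases, and Rpl22l1 has neither.
Rps6: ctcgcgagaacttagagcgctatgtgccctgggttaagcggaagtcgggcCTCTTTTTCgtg
Rpl28: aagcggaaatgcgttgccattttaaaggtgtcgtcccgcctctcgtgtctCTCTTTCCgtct
Rpl35: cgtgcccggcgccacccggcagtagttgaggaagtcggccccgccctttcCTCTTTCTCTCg
Rplp2: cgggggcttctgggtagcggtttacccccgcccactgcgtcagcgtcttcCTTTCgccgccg
Rpl38: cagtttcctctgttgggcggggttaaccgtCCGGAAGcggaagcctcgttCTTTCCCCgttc
Rps21: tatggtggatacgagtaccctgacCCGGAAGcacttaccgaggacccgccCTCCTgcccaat
Rpl37: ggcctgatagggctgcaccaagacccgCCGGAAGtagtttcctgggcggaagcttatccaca
Rpl22l1: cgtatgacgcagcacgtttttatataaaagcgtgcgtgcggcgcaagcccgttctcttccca

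These windows lie at chr4:86857356-86857417 on the minus strand for Rps6, chr7:4792915-4792976 on the plus strand for Rpl28, chr2:39005120-39005181 on the minus strand for Rpl35 and chr7:141447601-141447662 on the plus strand for Rplp2. Those of Rpl38 (chr11:114668530-114668591), Rps21 (chr2:180257329-180257390), Rpl37 (chr15:5116563-5116624) and Rpl22l1 (chr3:28805458-28805519) are on the plus strand. A start at C with 4 further pyrimidines was found in 14 of the 62 genes (22.6%), against 3.01% of all 27025 genes in the promoter table. A gene counted if any of its promoters there matched. Only the annotated start base was read, so a run that begins a few bases away was not counted. In windows from 250 bases before to 50 bases after the start, read on both strands, CCGGAAG was present in 25 of 62 (40.3%), against 9.93% of all genes there. The other letters searched in the same windows were GGGCGG, an Sp1 motif, found in 61.3% against 38.2% of all, AAGATGG, part of the YY1 motif, in 16.1% against 7.28%, CTCTTTCC in 16.1% against 3.57%, and TATAAA in 12.9% against 15.7%. CTCTTTCC can overlap the pyrimidine run, as it does in Rpl28. Genes with and without CCGGAAG had median levels of 242 and 245 CPM (counts per 1000000 counts of the cell) per kb of transcript, and those with and without the pyrimidine start 262 and 243.

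Reads of most of these genes were found in nearly every cell. Of the 84 genes, 54 had a read in all 31 cells and 75 in at least 90% of the cells. These 75 are called the core genes below. The libraries held between 356412 and 2627174 counts, so that 3 counts, the limit that a count of 0 allows, come to between 1.14 and 8.42 CPM in 1 cell. Counts were not collapsed by molecular identifiers, so that limits and intervals cover counting error only. No pair of libraries held identical values. Chat, Slc18a3 and Slc5a7, whose proteins make acetylcholine, load it into vesicles and take up choline, together had fewer than 10 reads in 4 of 18 LOC and 5 of 13 MOC libraries, and none in 2 LOC and 1 MOC libraries. MOC cell 7 alone held 19.3% of the MOC counts, which weighs on summed but not on cell-by-cell values.

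As a summed share of the library, ribosomal protein genes were lower in LOC than in MOC cells. They made up 1.47 ± 0.35% of the counts in LOC cells (SD, n = 18 cells), with a lowest value of 0.827%, a median of 1.40% and a highest of 1.99%. In MOC cells the share was 1.88 ± 0.55% (SD, n = 13 cells), with a lowest value of 0.647%, a median of 1.86% and a highest of 2.69%. The groups overlapped: 5 MOC cells lay above the highest LOC cell and 1 MOC cell, cell 5, below the lowest. The difference of -0.41 percentage points was about the size of the spread between cells of 1 group. The large subunit took 0.83% of the counts in LOC and 1.07% in MOC cells, and the small subunit 0.64% in LOC and 0.81% in MOC cells. Small subunit genes held 43.5 ± 3.0% of the ribosomal protein counts in LOC and 42.9 ± 2.8% in MOC cells, a difference within the spread between cells.

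Other parts of the libraries differed at the same time. The summed share of 10 neuron markers was 0.44 ± 0.15% in LOC and 0.73 ± 0.37% in MOC cells. Of these markers, 2 had a higher mean in LOC. Genes of the mitochondrial ribosome took 0.27% of LOC and 0.38% of MOC counts, and 41 translation factors 0.67% of LOC and 0.85% of MOC counts. The share of 9 cholinergic markers was higher in LOC, with 0.14% in LOC and 0.079% in MOC cells. Transcripts of the mitochondrial genome took 19.4 ± 10.7% of LOC counts and 13.8 ± 9.72% of MOC counts. With these and the ribosomal protein genes themselves taken out of the library size, the ribosomal protein counts came to 1.91% of it in LOC cells and 2.28% in MOC cells. All 11 markers of microglia, the immune cells of the brain, had lower means in LOC cells and 6 met the size rule for MOC given below. Their summed share ran from 0.0031 to 0.22% in LOC and from 0.0041 to 1.11% in MOC cells, and each marker had reads in both groups. Of 11 oligodendrocyte markers, 7 had higher means in LOC cells, but by summed counts 3 were higher in LOC and 8 in MOC, and 1 met the size rule for MOC. The share of these 11 markers ran from 0.0023 to 23.9% in LOC and from 0.037 to 12.3% in MOC cells. Without the 3 libraries highest in microglia markers, which were MOC cells 7, 8 and 12, the ribosomal share was 1.47% in LOC and 1.83% in MOC cells. The part of the neighbouring cells in the share of each cell was not tested.

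**Figure D1:**
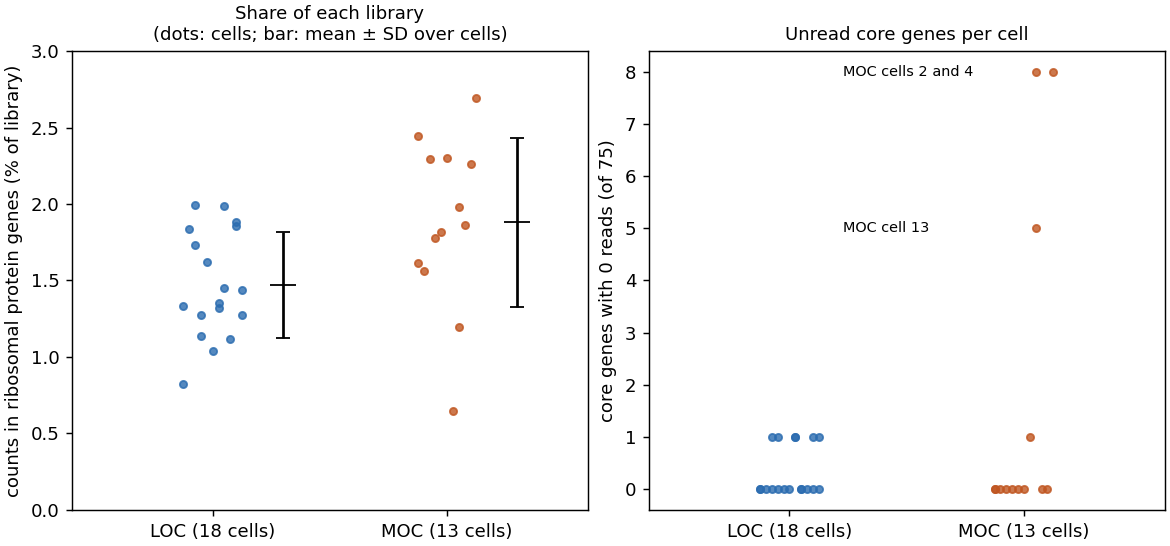
Left, the share of each library's counts that fell in the 84 ribosomal protein genes, in percent, with 1 dot per cell and a bar for the mean ± SD over cells. Right, how many of the 75 core genes had 0 reads in each cell. LOC cells average 1.47% and MOC cells 1.88% with overlapping dots, and 3 MOC cells stand apart with 5 or 8 unread core genes.

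No single ribosomal protein gene met the size rule, in either direction. The rule asks for a summed CPM 2 or more times as high as in the other group, a mean log2(CPM + 1) at least 1 higher, and reads in 25% or more of the cells that make up the higher group. The count was 0 of 84 for LOC and 0 of 84 for MOC, where 6.07% of all 17754 measured genes met it for LOC and 5.67% for MOC. Measured genes are those read in 25% or more of LOC or of MOC cells, and 82 of the 84 passed this filter, all except Rpl3l and Rpl32l. Of the 82, 80 (97.6%) differed by less than 1 on the log2 scale, as did 83.6% of all measured genes. The median of the 82 differences, LOC minus MOC, was -0.15, beside -0.07 for all measured genes, and 27 of the 82 were above 0, as were 45.7% of all measured genes. Summed counts gave a more uniform picture, with 77 of 82 genes (93.9%) lower in LOC, beside 51.2% of all measured genes. By cell medians the median difference was -0.36. It also moved with single libraries and with scaling, to -0.26 without MOC cell 5, -0.11 without MOC cell 8, -0.02 without the 3 libraries highest in microglia markers, -0.30 in the 14 LOC and 8 MOC libraries with at least 10 cholinergic reads, and -0.06 with mitochondrial and ribosomal counts left out of the library size. Without MOC cell 8 the median of all measured genes was -0.13, and without the 3 libraries highest in microglia markers it was -0.05, so that in these settings it lay below that of the ribosomal protein genes. In the other settings just named it lay above. It was 0 by cell medians, -0.12 without MOC cell 5 and -0.11 among the libraries with at least 10 cholinergic reads. With mitochondrial and ribosomal counts left out of the library size it was -0.04. The 48 large subunit genes had a median difference of -0.14 and the 34 small subunit genes one of -0.23.

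**Figure D2:**
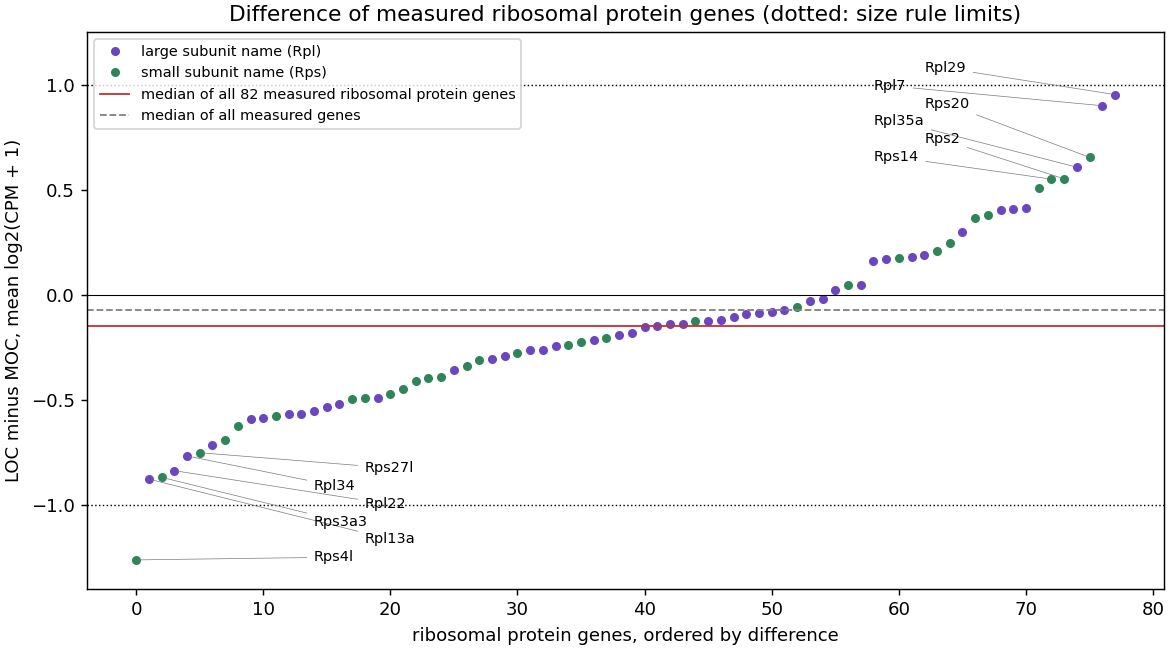
Difference of mean log2(CPM + 1), LOC minus MOC, of 78 of the 82 measured ribosomal protein genes in order of size, with large and small subunit names in different colours. Dotted lines mark differences of 1 in either direction, the red line the median of all 82 (-0.15) and the dashed line that of all measured genes (-0.07). Rps4l at -1.26 is the only plotted point beyond them, and Rpl29 at 0.95 is the highest one plotted.

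Several wide differences toward LOC came with missing or few reads in single MOC cells. Rpl29, a large subunit protein with a difference of 0.95, ran from 4.07 through a median of 91.2 to 339 CPM in LOC cells and from 0 through 130 to 234 CPM in MOC cells. It was unread in MOC cells 4, 5 and 13, and its median was lower in LOC than in MOC cells, unlike its mean.

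Rpl7, a large subunit protein, ran from 91.0 through a median of 232 to 586 CPM in LOC cells and from 0 through 337 to 693 CPM in MOC cells, a difference of means of 0.90. MOC cells 2, 5 and 13 held 0, 8.36 and 1.44 CPM of Rpl7, and the other 10 at least 122 CPM. Rps20 (0.65) and Rpl35a (0.61) were also among the 6 widest on this side, and both had medians that were lower in LOC than in MOC cells. Without MOC cells 2, 4 and 13, a set chosen after the values were seen, the differences became -0.15 for Rpl29 and -0.12 for Rpl7, while Rps20 stood at 0.10 and Rpl35a at 0.13. Single cells moved each of these by over 1.5 times. Rpl29 stood at 0.50 without MOC cell 4 or 13, Rpl7 at 0.33 without MOC cell 2 and at 0.43 without MOC cell 13. Rps20 stood at 0.12 without MOC cell 13 and at 0.24 without MOC cell 5, and Rpl35a at 0.17 without MOC cell 4 and at 0.39 without MOC cell 5.

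**Figure D3:**
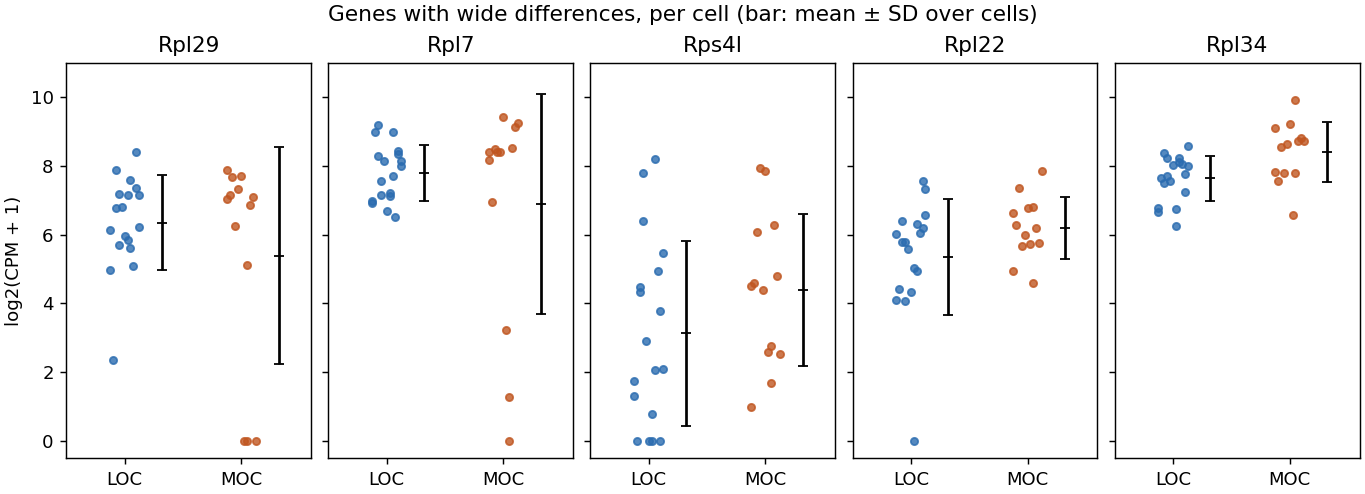
Log2(CPM + 1) of 5 genes among those with the widest differences, with 1 dot per cell and a bar for the mean ± SD over 18 LOC or 13 MOC cells. Rpl29 has 3 MOC cells and Rpl7 has 1 MOC cell at 0 below a group that overlaps the LOC cells, Rps4l is spread over the whole range in both groups, and Rpl22 and Rpl34 are shifted toward MOC.

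The 6 widest toward MOC were Rps4l, Rpl13a, Rps3a3, Rpl22, Rpl34 and Rps27l. Rpl34, a large subunit protein (chr3:130726831-130730398, minus strand, GRCm38), ran from 74.8 through a median of 211 to 382 CPM in LOC cells. In MOC cells it ran from 95.3 through 397 to 975 CPM. Its means were 7.64 ± 0.66 in LOC and 8.41 ± 0.87 in MOC cells, a difference of -0.77, and it was read in every cell. The difference was close to the SD of either group, and it remained between -0.92 and -0.64 when any 1 cell was left out. Rpl22, a large subunit protein that in mice can be lost in most tissues and is needed for T cell development, ran from 0 through 54.4 to 188 CPM in LOC cells and from 23.0 through 72.8 to 231 CPM in MOC cells. Its difference of -0.84 included 1 LOC cell without a read.

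Rpl13a, known in human cells as a silencer of inflammatory mRNAs once released from the ribosome, stood at the low end with 0 to 22.0 CPM in LOC cells (median 3.65) and 0 to 27.4 CPM in MOC cells (median 6.10). Its difference was -0.88, on values that lie near the CPM a count of 0 allows in 1 cell. The pseudogene Rps3a3 had 2 counts in LOC and 19 in MOC cells in all, so that its difference of -0.87 rests on few reads. Rps27l differed by -0.75, and by between -1.15, without MOC cell 3 or 5, and -0.39, without MOC cell 4, when 1 cell was left out. Among the libraries with at least 10 cholinergic reads its difference was 0.49.

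Paralogs are second copies of ribosomal protein genes, some of them used in particular tissues. Rps4l (chr6:148354656-148355598, plus strand), a copy of Rps4x, had the widest difference of all. In LOC cells Rps4l ran from 0 through a median of 4.88 to 294 CPM, and 4 of the 18 cells had no read. In MOC cells it ran from 0.985 through 21.9 to 244 CPM and was read in all 13. The means were 3.13 ± 2.69 in LOC and 4.39 ± 2.23 in MOC cells, a difference of -1.26 that was smaller than the SD within LOC and within MOC cells. Summed over cells, Rps4l reached 40.3 CPM (37.0 to 43.7) in LOC and 67.5 CPM (63.2 to 72.0) in MOC (exact Poisson intervals at 95%), which is under the 2 times of the size rule. Most LOC reads came from few cells, since LOC cells 13 and 14 held 294 and 223 CPM of Rps4l and 11 of the others under 15 CPM.

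The parent gene Rps4x, on the X chromosome, ran from 0 through a median of 301 to 504 CPM in LOC and from 0 through 311 to 679 CPM in MOC cells, a difference of -0.28. That difference was -0.91 without MOC cell 2, 0.16 without LOC cell 7, 0.13 without the 3 libraries highest in microglia markers and 0.54 among the libraries with at least 10 cholinergic reads. Cells poor in Rps4x were LOC cell 7 and MOC cell 2, both without a read, which held 0 and 2.23 CPM of Rps4l. The 789 coding bases of Rps4x were aligned without gaps to the Rps4l transcript used, which has no coding bases marked in GENCODE M21. Over these 789 bases the 2 genes share no identical stretch longer than 35 bases. No source used here gives the read length. They differ at 161 of these bases (79.6% identity), although 8.11% of the 75-base stretches of Rps4l also occur in its pseudogene Rps4l-ps. The 90 bases with the most differences, counted 484 to 573 from the start codon of Rps4x, follow with the 27 differing bases in capitals.
Rps4l: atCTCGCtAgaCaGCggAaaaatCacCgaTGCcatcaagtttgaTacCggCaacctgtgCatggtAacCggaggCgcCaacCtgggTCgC
Rps4x: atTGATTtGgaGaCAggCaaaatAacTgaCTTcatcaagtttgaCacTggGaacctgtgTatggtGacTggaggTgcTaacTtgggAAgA

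Rps27l, a copy of Rps27 that p53 can induce, was read in 14 of 18 LOC cells and 11 of 13 MOC cells. It ran from 0 through a median of 33.2 to 128 CPM in LOC and from 0 through 47.4 to 543 CPM in MOC cells, and the highest value was that of MOC cell 4. Rps27 itself ran from 95 through 263 to 771 CPM in LOC and from 56.9 through 296 to 1042 CPM in MOC cells, a difference of -0.22. Rpl22l1, the copy of Rpl22, which is known to rise in mice that lack Rpl22, ran from 0 through 26.6 to 85.2 CPM in LOC and from 2.07 through 20.1 to 117 CPM in MOC cells. Its difference was 0.30, while that of Rpl22 was -0.84, and both lay within the spread between cells. Rpl7l1, a copy of Rpl7, was read in 14 LOC and 10 MOC cells with medians of 37.5 CPM in LOC and 27.2 CPM in MOC cells. Rpl3l, the copy of Rpl3 used in heart and skeletal muscle, had 4 counts in LOC and 13 in MOC cells, and was read in 3 cells of each group. Rpl3 had medians of 242 CPM in LOC and 275 CPM in MOC cells.

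Levels of different genes were compared per kb of GENCODE M21 transcript. For each gene this was the shortest transcript whose coding length matched a consensus coding (CCDS) transcript of the gene. Where no transcript matched, it was the shortest of all. The core genes spanned 59-fold, from 15.3 to 899 CPM per kb with a median of 258. The low end was Rpl23a alone, whose level is uncertain as described below, and the next lowest core gene was Rpl35 at 42.8. By the mean over all 31 cells, the stalk protein Rplp1 was highest, with 810 CPM per kb in LOC and 1023 in MOC cells. Rps27 followed with 782 in LOC and 975 in MOC cells, and Rpl41, the smallest ribosomal protein, with 852 in LOC and 794 in MOC cells. Next came Rps28, Rps29, Rps24, Rpl34, Rps14, Rps27a and Rps9, and neighbours in this order lay close to each other beside the spread between cells. The order was much alike in both groups, with a Spearman correlation of 0.92 across the 75 core genes, which share the same libraries and lengths. Rps20 stood low on this scale, with a transcript of 3706 bases taken as its length.

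**Figure D4:**
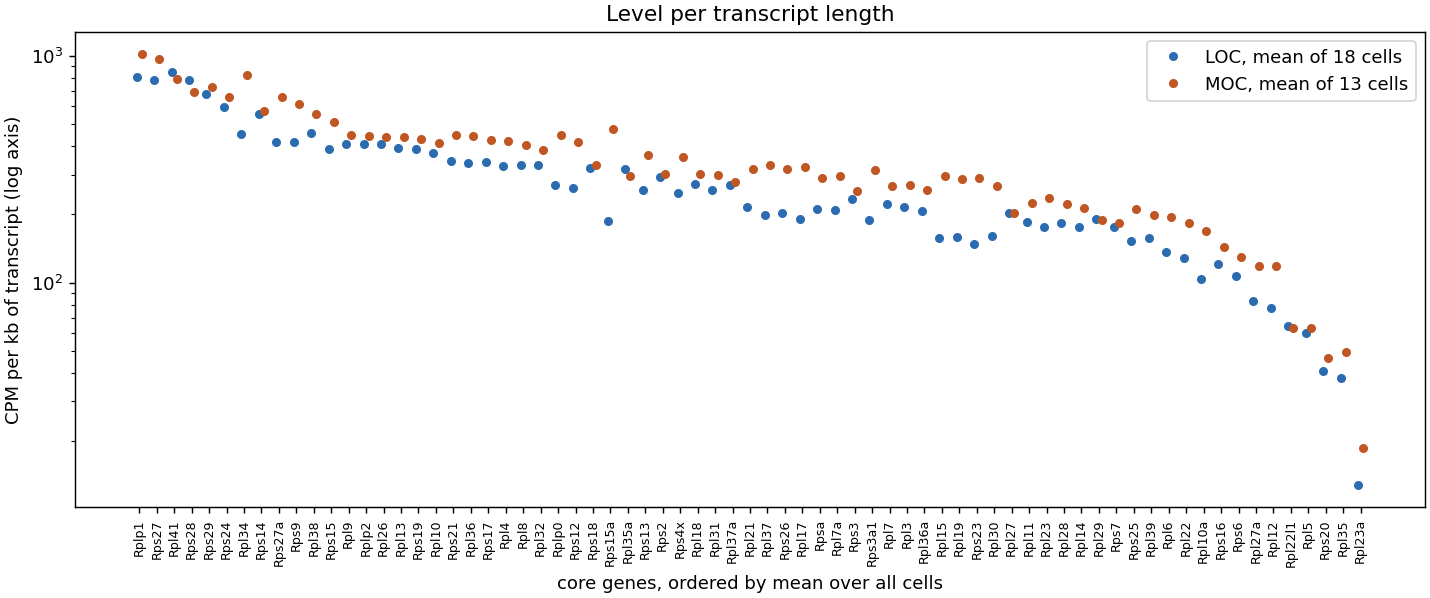
Mean CPM per kb of transcript of 71 of the 75 core genes in LOC cells (left dot of each pair) and MOC cells (right dot) on a log axis, ordered by the mean over all cells. The order is much alike in both groups, from Rplp1 at 810 CPM per kb in LOC and 1023 in MOC cells to Rpl23a at 12.8 in LOC and 18.7 in MOC cells.

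Among proteins with set roles, the stalk that recruits elongation factors to the large subunit showed medians lower in LOC for all 3 members. This was not particular to the stalk, since 7 of the 82 measured ribosomal protein genes had a higher median in LOC. Rplp0 ran from 121 through a median of 351 to 624 CPM in LOC and from 20.9 through 642 to 1767 CPM in MOC cells. Rplp1 ran from 180 through 392 to 777 CPM in LOC and from 59.1 through 556 to 829 CPM in MOC cells. Rplp2 ran from 52.9 through 152 to 345 CPM in LOC and from 12.3 through 179 to 363 CPM in MOC cells. Their mean differences were -0.25, -0.19 and 0.16, so the mean and the median of Rplp2 differed in sign. All of these overlapped between the groups.

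Rps6, the small subunit protein phosphorylated by the S6 kinases below mTOR, had medians of 76.6 CPM in LOC and 113 CPM in MOC cells, with a difference of means of -0.06. Rpl5 and Rpl11, which bind 5S ribosomal RNA and can restrain Mdm2, differed by -0.15 and -0.26. Rps19 and Rps14, whose loss causes anaemias in humans, differed by -0.41 and 0.55. Rps14 had at least 1.61 CPM in all MOC cells, a median of 360 and a highest value of 610, beside 108, 331 and 628 CPM in LOC cells, so its positive difference came with low single MOC cells. Rpl38, needed in mice for translation of Hox mRNAs, differed by -0.29, and Rps25, used by several viral internal ribosome entry sites, by -0.13. Rpsa, also described as a laminin receptor precursor, had medians of 323 CPM in LOC and 502 CPM in MOC cells and differed by -0.47. Rps27a, which is made fused to ubiquitin, differed by -0.69 and Rps26 by -0.62. Rpl10, which joins the large subunit late in its maturation, differed by -0.15.

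The steadiest genes over all 31 cells, among those read in every cell, were Rpl41 with an SD of 0.53 on the log2 scale, Rpl37 with 0.71, Rps26 with 0.71, Rpl28 with 0.74 and Rpl10 with 0.75. The widest were Rps14 with 1.46, Rps3 with 1.42, Rpsa with 1.39, Rpl36a with 1.39 and Rpl37a with 1.34. Rpl41 ran from 140 through 358 to 755 CPM in LOC and from 219 through 325 to 571 CPM in MOC cells, with a difference of 0.02. The median SD of the 75 core genes was 0.80 in LOC and 1.35 in MOC cells, and 61 of the 75 were more variable in MOC. For 1320 other protein-coding genes of at least 100 CPM, read in at least 90% of cells, the median SD was 1.68 in LOC and 2.04 in MOC cells. Of these, 864 (65.5%) were more variable in MOC, as were 50.3% of all measured genes.

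Most of the missing reads lay in 3 MOC cells. Of 2325 values of core genes, 28 were 0, of which 6 were in LOC and 22 in MOC cells, and 21 of those in MOC lay in cells 2, 4 and 13. Among others, MOC cell 2 had no read of Rpl19, Rpl30, Rpl7, Rps2 and Rps4x, and MOC cell 4 none of Rpl10a, Rpl13, Rpl23a, Rpl29, Rps18 and Rps7. MOC cell 13 had none of Rpl29, Rpl39, Rps15a, Rps20 and Rps23. Rpl29 was unread in both cell 4 and cell 13. Missing reads were not limited to ribosomal genes there: 9.33% of core values and 7.70% of values of the 1320 other genes were 0 in these 3 cells. In LOC cells these shares were 0.44% and 2.20%, and in the other 10 MOC cells 0.13% and 1.48%. Single cells varied widely: the other genes were unread at 3.56% in MOC cell 2, 8.86% in MOC cell 4 and 10.7% in MOC cell 13, but also at 6.59% in MOC cell 5, 6.97% in LOC cell 14 and 9.85% in LOC cell 17, each with 1 core gene unread.

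High and missing values stood side by side in these cells. Rps15a stood at 2126 CPM in MOC cell 4, 10.04 CPM in MOC cell 2 and 0 in MOC cell 13, against medians of 115 CPM over LOC cells and 193 CPM over MOC cells. The 5 highest genes of a cell took 28.2% of the ribosomal protein counts in MOC cell 4, 25.9% in MOC cell 2 and 23.2% in MOC cell 13, beside medians of 17.8% over LOC and 17.3% over MOC cells. MOC cells 5 and 8, with 1 and 0 core genes unread, stood at 24.4% and 23.2%. MOC cell 4 held 622287 counts, MOC cell 2 held 896324 and MOC cell 13 held 694883, all below the MOC median of 906622. MOC cells 5, 6 and 12 also lay below it, with 598028, 746097 and 820069 counts and 1, 0 and 0 core genes unread. Chat, Slc18a3 and Slc5a7 together had 3, 45 and 1 reads in MOC cells 4, 2 and 13, and 0 in MOC cell 8. The mitochondrial share of MOC cells 4, 2 and 13 was 6.93%, 1.72% and 1.56%, below the MOC median of 11.5%, as was the 1.65% of MOC cell 5. The part of these values in the missing reads was not tested. Without MOC cells 2, 4 and 13, the median SD of the core genes in MOC was 0.75, with 32 of 75 wider than in LOC, beside 408 of the 1320 other genes (30.9%). The median difference of all measured ribosomal genes was -0.34, beside -0.08 for all measured genes. The 1320 other genes, a set of higher level, stood at -0.28 without and 0.07 with these cells. When MOC cell 5 was left out as well, the median SD of the core genes in MOC was 0.48, with 6 of 75 wider than in LOC, and their median difference was -0.57. The 1320 other genes moved the same way, to a median SD in MOC of 0.998, with 248 (18.8%) wider than in LOC. Their median difference was then -0.39.

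**Figure D5:**
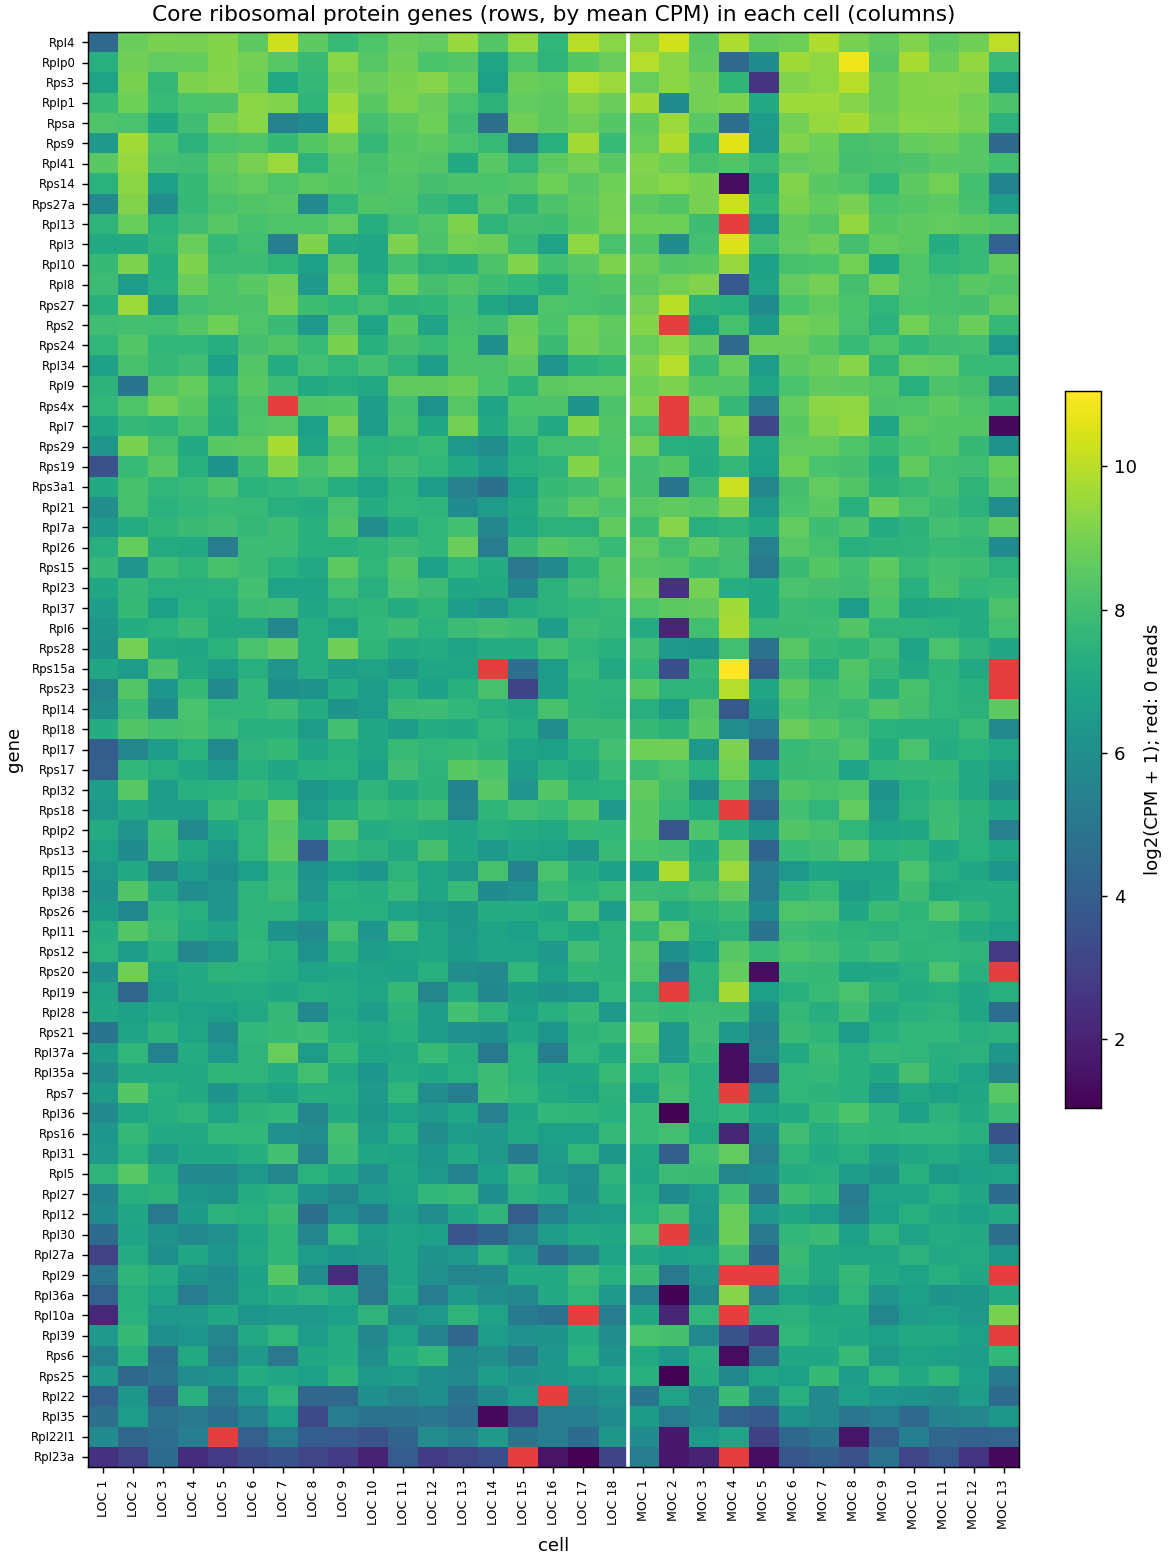
Log2(CPM + 1) of 71 of the 75 core genes (rows, by mean CPM) in the 18 LOC cells (left) and the 13 MOC cells (right), with values of 0 in red. The columns of MOC cells 2, 4 and 13 hold 16 of the 23 red squares, and the column of MOC cell 5, the cell with the lowest share, is mostly dark.

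The median Pearson correlation between 2 of the 82 measured genes over the 31 cells was 0.17 on the log2 scale, and 72.7% of the 3321 pairs were above 0. It was 0.16 over LOC cells and 0.22 over MOC cells. Over the 31 cells, 96 measured nuclear genes of oxidative phosphorylation had a median of 0.18, with 78.1% of pairs above 0. The median was 0.11 for 77 genes of the mitochondrial ribosome, 0.09 for 37 ribosome assembly genes and 0.08 for 41 translation factors. For the core genes in MOC cells the median correlation was 0.25, beside 0.07 for the 1320 other genes. The core value was 0.62 without MOC cells 2, 4 and 13, and 0.22 when MOC cell 5, the cell with the lowest share, was left out as well, so the high value rests on that cell. All of these values share library depth and the CPM scale, and they are given as descriptions.

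Some ribosomal protein genes were counted at very low levels. Of these, Rpl24, Rps10 and Rpl13a are not among the core genes defined above, and Rpl23a is. Rpl24, the gene mutated in the belly spot and tail mouse, had 15 counts in LOC and 11 in MOC cells in all, and was read in 3 LOC and 6 MOC cells. Rps10 had 73 counts in LOC and 18 in MOC cells, read in 8 LOC and 6 MOC cells. Rpl13a had 89 and Rpl23a 102 counts in LOC cells, and 170 and 161 in MOC cells. In GENCODE M21, Rpl24 overlaps Gm28037 on the same strand, Rps10 overlaps RPS10-NUDT3 and Rpl13a overlaps Gm45713, and these 3 partners had 0 counts in both groups. For Rpl24, 80.9% of the 75-base stretches of its transcript, a length chosen here, also occur in transcripts of other genes, for Rps10 90.1% and for Rpl23a 81.7%. No source used here says how reads that match more than 1 gene were counted, so these levels are uncertain. A high share did not always go with a low level, since it was 98.5% for Rps27 and 91.9% for Rpl10. In all, 43 of the 84 genes had more than 50% of such stretches.

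Of 9 ribosomal partners outside the name rule, none met the size rule. Fau, the source of Rps30, had medians of 222 CPM in LOC and 299 CPM in MOC cells, with a difference of -0.46. Rack1, the scaffold protein of the small subunit, had medians of 233 CPM in LOC and 217 CPM in MOC cells, while its mean difference of 1.83 included 2 MOC cells at 0. Of 11 elongation and termination genes none met it, with a median difference of -0.30, and Eef1a1, which brings aminoacyl-tRNA to the ribosome, had medians of 1156 CPM in LOC and 1289 CPM in MOC cells. Eef2, which moves the ribosome along, stood at 720 CPM in LOC and at 719 CPM in MOC cells.

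The counts in the lists that follow stand beside the 6.07% of all measured genes that met the rule for LOC and the 5.67% for MOC. Of 30 initiation genes, 0 met the rule for LOC and 2 for MOC. Eif1ax, which helps to select the start codon, reached 61.8 CPM in LOC, against 148 CPM in MOC, in summed counts (difference -2.09), and Eif2s1, the regulated subunit of eIF2, 19.8 CPM in LOC and 46.7 CPM in MOC (-1.15). Among MOC reads of Eif2s1, 53.5% came from cell 8. Of 20 genes of mTOR and oligopyrimidine control, 3 met the rule for LOC and 1 for MOC, with a median difference of 0.00. Tsc1, an inhibitor of mTOR complex 1, reached 110 CPM in LOC, against 19.6 CPM in MOC (difference 1.69). Rps6kb1, the S6 kinase that phosphorylates Rps6, reached 63.5 CPM in LOC, against 15.1 CPM in MOC (1.75), and Ddit4, an inducible inhibitor of the pathway, 13.96 CPM in LOC and 6.60 CPM in MOC (1.10). Akt1, a kinase above mTOR, reached 22.8 CPM in LOC, against 68.9 CPM in MOC (-1.13). Larp1 itself reached 19.2 CPM in LOC, against 16.2 CPM in MOC (0.19).

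Of 37 ribosome assembly genes, 5 met the rule for LOC and 2 for MOC, beside a median difference of -0.13. Rrp9, part of the U3 particle that processes ribosomal RNA, reached 54.7 CPM in LOC, against 4.47 CPM in MOC (difference 2.48). Tsr1, a factor of small subunit maturation, reached 25.1 CPM in LOC, against 4.40 CPM in MOC (1.73), and Utp15, of the small subunit processome, 72.2 CPM in LOC and 10.8 CPM in MOC (1.47). Ltv1, a late assembly factor of the small subunit, reached 7.29 CPM in LOC, against 33.0 CPM in MOC (-1.92). The median SD of the assembly genes was 2.35 in LOC and 2.30 in MOC cells. Of 15 factors that can bind ribosomal protein gene promoters, 0 met the rule for LOC and 3 for MOC, with a median difference of -0.73. They were Tbpl1 (-1.57), a relative of the TATA-binding protein, E2f1 (-1.06), a cell cycle factor, and Gabpb2 (-1.02), a partner of the ETS factor Gabpa, and 90.4% of the E2f1 counts in LOC came from 1 cell.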

How the data were processed

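Raw read counts per gene and cell were deposited by the authors. A second deposited table holds normalized signal, CPM on TMM-adjusted library sizes by the file's own name, in which each column is the raw counts times 1 constant. STAR 2.5.2, bcl2fastq, limma, edgeR and DESeq2 are named without roles, per the submitters' processing notes, as are mm10 and GRCm38. The counting tool, and how it treated reads that match more than 1 gene, are not given in any source used. Nextera libraries keep no strand, so reads of a gene and an overlapping gene on the other strand cannot be told apart.

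CPM was computed here on the total of all mouse gene counts, and differences are LOC minus MOC of mean log2(CPM + 1), which understates differences of low genes. Means, medians and SDs were taken over cells. Each group counts as 1 sample because the labels name no animal, so no test was made. edgeR 4.0.16 (R 4.3.3) gave TMM sizes only, and the tables were made with Python 3.11.15. Symbols and coordinates (from 1) come from the files and GENCODE M21, and promoters from RefSeq (GRCm38.p6).

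Genes named in the text were taken by rule: the 10 highest per kb, the 6 widest differences in each direction, paralogs and parents, stalk proteins and Rpsa, a list with known roles, the 5 widest and 5 narrowest SDs, and rarely read genes. From the other lists, up to 4 genes each were named where they met that rule of size. Rps15a, Rps10, Rpl23a and the genes unread in MOC cells 2, 4 and 13 were named after their values were seen, as were some genes used as examples. The members and the lists were chosen with earlier results of these data known. A few genes are included in the counts and medians but are not reported here by name or plotted singly.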

Additional observations from a re-analysis of the deposited data

How the results depend on the processing

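Under the 13 alternatives beside leaving out single cells, the share of ribosomal protein genes stayed lower in LOC wherever it could be computed, and the median difference stayed negative, between -0.41 with summed counts and -0.02 without the 3 libraries highest in microglia markers. The count of genes meeting the size rule for LOC was 1 with summed counts (Rps10). That for MOC was 2 with summed counts (Rps15a, Rps3a3), 1 with medians over cells (Rps3a3), 1 with TMM-adjusted sizes (Rpl13a) and 1 without MOC cells 2, 4 and 13 (Rpl13a), a set chosen after seeing the data. The share of all measured genes meeting the rule was not computed for these alternatives or for single cells left out. Leaving out each cell in turn gave 0 to 0 for LOC and 0 to 2 for MOC, where Rpl13a met it without LOC cell 2, 11 or 13 or MOC cell 5 and Rps4l without LOC cell 13 or 14. It gave a difference in share of -0.51 to -0.34 points, a median difference of -0.26 to -0.11 and a median pair correlation of 0.13 to 0.21. TMM sizes moved the median of all genes to -0.13, against -0.26 for these genes. With summed counts the median of all genes was -0.02, against -0.41 for these genes. Of 48 named genes, 19 kept their sign throughout. The share has no value of its own under a pseudocount of 10 or without the filter, nor has the pair correlation under summed counts or medians. No paired analysis was possible because no test was made and the cell numbers only name cells.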

Other observations

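The 10 other genes that varied most like the mean of the ribosomal protein genes over the 31 cells were taken from 3585 genes of at least 50 CPM. Of the 75 nuclear genes of oxidative phosphorylation among these, 5 were in the first 50. Uqcr11, a subunit of respiratory complex III, had a Pearson correlation of 0.82, which was 0.79 within LOC and 0.85 within MOC cells. S100a16, a calcium-binding protein, had 0.79, mt-Co1, a subunit of complex IV encoded in mitochondria, 0.77, and Ndufa1, of complex I, 0.75. Fau, the source of the ribosomal protein Rps30, had 0.75. The others were Taldo1 (0.74), Cox6a1 (0.74), Cmtm5 (0.73), Tpt1 (0.72) and Tomm7 (0.72), and the median over all genes compared was 0.08. Correlations of the 10 genes ran from 0.34 (Tpt1) to 0.80 (Tomm7) within LOC cells. Within MOC cells they ran from 0.71 (Tomm7) to 0.94 (Fau). All but Tomm7 were lower within LOC than within MOC cells. These genes were picked as the highest of many in libraries of shared depth.

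The summed share of 100 nuclear genes of oxidative phosphorylation was 1.88 ± 0.56% in LOC and 2.64 ± 0.72% in MOC cells (SD over cells), and its Spearman correlation with the ribosomal protein share was 0.79 over 31 cells, 0.70 within LOC and 0.66 within MOC cells. The same correlation was 0.14 for mitochondrially encoded genes, 0.17 for the 78 genes of the mitochondrial ribosome, 0.44 for translation factors, 0.32 for the total count, 0.36 for oligodendrocyte markers, 0.47 for astrocyte markers and 0.49 for microglia markers. Within LOC cells these values were 0.31 for mitochondrially encoded genes, 0.22 for the mitochondrial ribosome, 0.37 for translation factors, 0.01 for the total count, 0.43 for oligodendrocyte, 0.52 for astrocyte and 0.39 for microglia markers. Within MOC cells they were 0.22 for mitochondrially encoded genes, -0.25 for the mitochondrial ribosome, 0.27 for translation factors, 0.29 for the total count, 0.14 for oligodendrocyte, 0.32 for astrocyte and 0.41 for microglia markers. For neuron markers the correlation with the ribosomal protein share was 0.17 over 31 cells, -0.03 within LOC and 0.05 within MOC cells. Rows named as pseudogenes of ribosomal proteins took 0.015% of the counts in LOC and 0.019% in MOC cells.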
